A study of Mus musculus with 12 samples.

Results

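Coronary artery was compared with descending aorta on 6 arrays, 3 of each vessel, out of 12 Affymetrix mouse arrays in all. The arrays were chosen by the vessel named in their labels. Coronary artery, which runs over the heart and feeds its muscle, gave replicates 1 to 3, and descending aorta, the trunk artery behind the heart, gave another 3 replicates. Both groups came from untreated wild-type mice of the C57BL/6 strain at 8 weeks of age, and no transgene or other allele is given for either. The other 6 arrays, 3 of ascending aorta and 3 of superior mesenteric artery from the same kind of mouse, entered the fit only to estimate the spread between replicates. The series was designed to look for expression that follows the embryonic source of each vessel. Replicates are labelled biological, but whether each was 1 animal or a pool is not said, so p-values reflect only the variation among these tissue samples. The labels do not give how much heart muscle, fat or other adjoining tissue was removed in dissection.

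Each artery has an inner endothelium, a middle layer of smooth muscle and elastic fibres, and an outer layer of fibroblasts and nerves. In the embryo, coronary smooth muscle comes largely from the epicardium, the cell layer that covers the heart, and smooth muscle of the descending aorta comes largely from the somites of the trunk. Coronary arteries of the mouse lie within heart muscle, and the thoracic aorta lies in brown fat, and either tissue can be taken along in dissection. In whole tissue, fewer cells of a type and less RNA per cell cannot be told apart.

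The promoters of 5 genes that were higher in coronary artery are shown first, because their products are the contractile proteins and hormones on which the comparison turned. Sequences are upstream bases up to the base before the annotated start site, read 5′ to 3′ on the gene's strand, from RefSeq on GRCm38.p6. Capitals in the first 3 mark a CArG box, the element that serum response factor binds in muscle genes, here within the promoters of the actin Actc1 (chr2:114052876-114052985, minus strand) and the myosin light chains Myl7 (chr11:5898783-5898892, minus strand) and Myl3 (chr9:110763568-110763677, plus strand).
Actc1: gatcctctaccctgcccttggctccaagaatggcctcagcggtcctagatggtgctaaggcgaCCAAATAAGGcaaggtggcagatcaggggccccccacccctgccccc
Myl7: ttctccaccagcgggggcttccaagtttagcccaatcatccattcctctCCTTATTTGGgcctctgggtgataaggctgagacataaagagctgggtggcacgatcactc
Myl3: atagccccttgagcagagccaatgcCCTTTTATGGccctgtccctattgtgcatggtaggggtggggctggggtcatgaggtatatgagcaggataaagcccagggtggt
The box began 47 bases before the start site of Actc1, 61 before that of Myl7 and 85 before that of Myl3.

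Capitals in the next pair mark matches to the motif of GATA factors (the letters GATA after an A or T and before an A or G, on either strand) upstream of the natriuretic peptide genes Nppa (chr4:148000572-148000721, plus strand) and Nppb (chr4:147985750-147985899, plus strand), whose start sites lie 14822 bases apart.
Nppa: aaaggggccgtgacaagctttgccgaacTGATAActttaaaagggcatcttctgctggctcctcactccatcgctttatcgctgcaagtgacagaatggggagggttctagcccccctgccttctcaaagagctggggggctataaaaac
Nppb: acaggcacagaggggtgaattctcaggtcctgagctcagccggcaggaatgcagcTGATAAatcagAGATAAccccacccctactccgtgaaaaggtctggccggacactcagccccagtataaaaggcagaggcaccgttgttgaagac
The match in Nppa began 122 bases before the start site, and the matches in Nppb began 95 and 84 bases before it. Over the 250 bases upstream of the start and on both strands, a CArG box stood in the promoter of 4 of the 18 sarcomere genes called higher that have a promoter in the table (22.2%), against 1.62% of 27025 genes. The GATA motif stood in 9 of these 18 (50.0%), against 29.7% of all genes. Among the genes called higher, 11 of 249 held a CArG box (4.42%) and 76 of 249 a GATA motif (30.5%). Both motifs were picked after matches had been seen, so these shares describe letters in the windows and are no test.

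Coronary artery and descending aorta differed most in muscle and fat genes. Of 19938 genes tested, 627 (3.14%) passed a limma adjusted p of 0.05. They divided into 306 genes higher in coronary artery (1.53%) and 321 lower (1.61%), and in all 627 the 3 coronary arrays lay wholly above or below the 3 descending aorta arrays. The counts of list members called, given below, stand against these shares. Over all genes the median log2 difference, coronary artery minus descending aorta, was -0.01, where 1 log2 unit is a 2-fold difference. The groups did not overlap in 1969 genes with coronary artery above (9.88%) and in 2498 with it below (12.5%). At 4-fold or more, 133 of the called genes were higher and 95 lower. Levels are given below as deposited log2 values in the order of replicates 1, 2 and 3, and differences as log2 differences ± SE with n = 3 arrays in each vessel. Levels of different genes come from different probes and are not set against each other.

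Quality was alike across the 6 arrays in its main measures. Correlations across genes lay between 0.965 and 0.974 within coronary artery, between 0.973 and 0.976 within descending aorta and between 0.923 and 0.946 across the vessels. Array medians over all 12 arrays lay between 4.04 and 4.18 and first quartiles between 2.86 and 3.01. Detection calls were not used here, so a level near 3 may be background, and differences against it may understate the true ones. Some arrays stood apart within their group in some genes. Descending aorta replicate 1 exceeded both other descending aorta arrays by more than 1 log2 unit in 39 genes, 17 of which were among the 306 genes higher in coronary artery. Descending aorta replicate 3 was the highest of its group over 17 epicardial genes, and coronary replicate 3 the highest of its group in the pancreatic enzyme genes Ctrb1 and Cpa1, as given below. Among the other vessels, the B cell list averaged 7.88 in ascending aorta replicate 1 and at most 4.57 in any coronary array, and Cpa1, a pancreatic digestive enzyme gene chosen after its values were seen, had 6.21, 3.94 and 9.89 in superior mesenteric artery. Cpa1 also had 4.06, 3.19 and 5.21 in coronary artery, against 2.93, 3.94 and 2.81 in descending aorta, and Ctrb1, another digestive enzyme gene chosen in the same way, had 4.68, 3.39 and 6.90 in coronary artery, against 3.99, 3.57 and 3.61 in descending aorta. Coronary replicate 3 was thus the highest of the 6 arrays in both genes, and neither passed the threshold. Without ascending aorta replicate 1 the fit called 1056 genes, and without superior mesenteric artery replicate 3 it called 559. Without these 2 arrays and descending aorta replicate 1, a setting chosen after seeing the data, 724 genes were called (298 higher, 426 lower), 534 of them also called with all arrays.

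The label of coronary artery was checked against vessel and heart markers. Smooth muscle contractile transcripts were present, with a list mean of 6.32 ± 0.10 (SD, n = 3) in coronary artery and 6.85 ± 0.09 (SD, n = 3) in descending aorta. That coronary mean includes Pln (6.42 ± 0.82) and Des (2.74 ± 0.66), which heart muscle also expresses, while the median difference of the list was -1.15 and the smooth muscle genes Cnn1 (-3.76 ± 0.84), Myh11 (-3.07 ± 0.84) and Acta2 (-2.53 ± 0.63) were at lower levels in coronary artery. Endothelial transcripts averaged 6.05 ± 0.15 (SD, n = 3) in coronary artery and 5.51 ± 0.19 (SD, n = 3) in descending aorta. Transcripts of the heart muscle sarcomere averaged 8.95 ± 0.18 (SD, n = 3) in coronary artery and 4.77 ± 0.65 (SD, n = 3) in descending aorta. The coronary samples thus held heart muscle transcripts beside those of the vessel wall, and the part of heart muscle in each difference below was not tested.

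**Figure D1:**
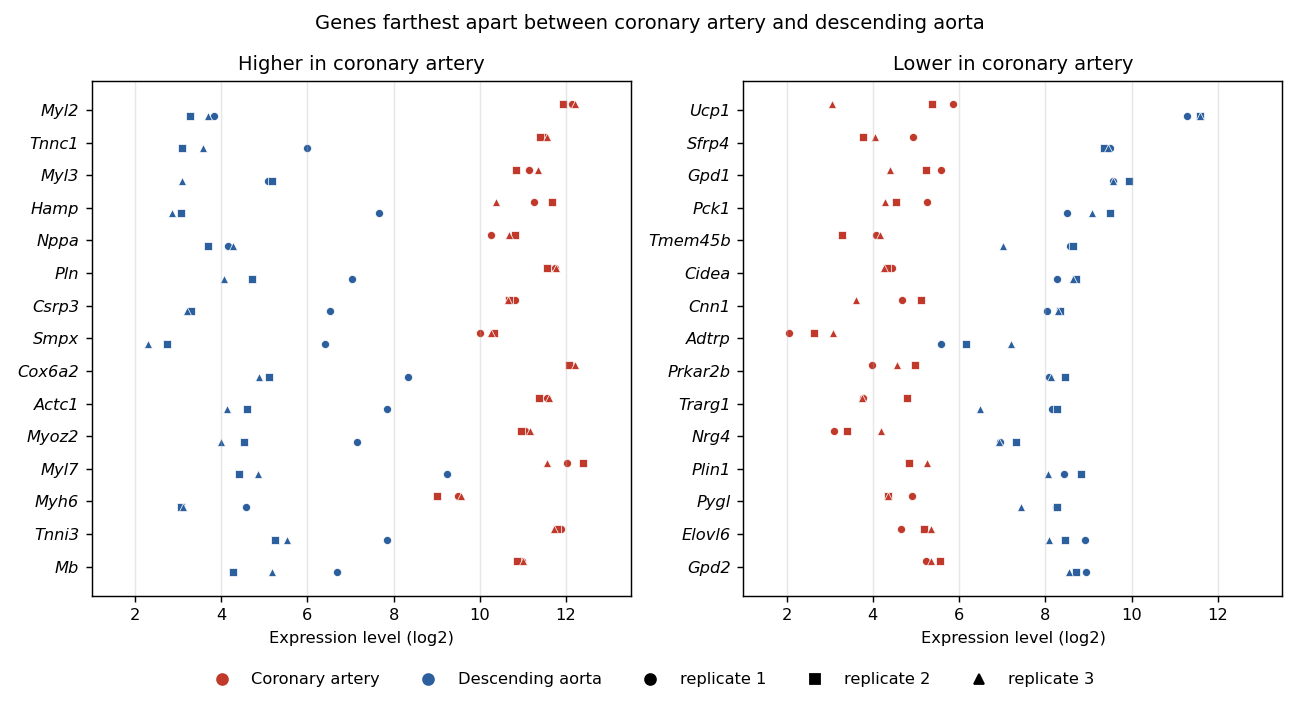
Expression levels (log2, horizontal axes) of the 15 genes with the largest called difference in each direction, 1 point per array. Coronary artery arrays are red, descending aorta arrays blue, and the marker shape gives the replicate. Groups do not overlap in any of the 30 genes. Among the genes higher in coronary artery, the circle for descending aorta replicate 1 lies more than 1 log2 unit above the other blue points in all but Myl2, Myl3 and Nppa.

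The sarcomere, the repeating unit of striated muscle in which myosin pulls on actin, gave the largest differences. Of 24 measured sarcomere genes of heart muscle, 20 rose in coronary artery, against 1.53% of all genes, and 0 fell. The median difference was 3.76, and in all 24 the coronary arrays lay above the descending aorta arrays, against 9.88% of all genes. The mean of the 24 was 8.96, 8.76 and 9.11 in coronary artery, against 5.51, 4.49 and 4.30 in descending aorta. Descending aorta replicate 1 was thus the highest of its group by about 1 log2 unit and still far below every coronary array. The 4 that did not pass were Myom1 (2.40 ± 0.71), Tpm1 (1.92 ± 0.49), Cryab (1.79 ± 0.64) and Xirp1 (0.96 ± 0.36). Without descending aorta replicate 1, 18 of 24 were called higher, and without the 3 arrays named above 21.

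Thick filament genes came first. Myl2, the regulatory myosin light chain of the ventricles, had levels of 12.13, 11.94 and 12.20 in coronary artery, against 3.83, 3.27 and 3.69 in descending aorta. All coronary arrays lay at least 8 log2 units above all descending aorta arrays, and the difference of 8.49 ± 0.21 (limma adjusted p = 3.21e-10) was the largest of any gene. Myl3, the essential light chain of the ventricles, had levels of 11.15, 10.84 and 11.36 in coronary artery, against 5.10, 5.19 and 3.10 in descending aorta. Its groups stood apart in every array, by 6.66 ± 0.43 (limma adjusted p = 2.26e-06). Myh6, the alpha heavy chain that predominates in adult mouse heart, had 9.49, 9.01 and 9.56 in coronary artery, against 4.58, 3.06 and 3.12 in descending aorta, a difference of 5.77 ± 0.41 (limma adjusted p = 4.58e-06). Myh7, the beta heavy chain, is a near neighbour in sequence that can share probe signal with Myh6, and it rose by 1.25 ± 0.18 (limma adjusted p = 0.00147). Ttn, the giant spring protein titin, rose by 3.56 ± 0.27 (limma adjusted p = 6.71e-06).

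Thin filament genes followed. Tnnc1, the calcium-binding subunit of troponin, had levels of 11.52, 11.40 and 11.55 in coronary artery, against 5.99, 3.09 and 3.59 in descending aorta, and replicate 1 was the highest of the descending aorta arrays. The difference was 7.26 ± 0.54 (limma adjusted p = 5.38e-06). Tnni3, the inhibitory subunit of cardiac troponin, had 11.89, 11.79 and 11.73 in coronary artery, against 7.85, 5.26 and 5.53 in descending aorta, a difference of 5.59 ± 0.59 (limma adjusted p = 0.000138). Tnnt2, the subunit that binds tropomyosin, had 11.30, 11.21 and 11.42 in coronary artery, against 7.89, 5.90 and 5.51 in descending aorta, a difference of 4.88 ± 0.65 (limma adjusted p = 0.000881). Descending aorta replicate 1 was the highest of its group in both, by more than 1 log2 unit. Actc1, cardiac alpha-actin, had levels of 11.56, 11.37 and 11.60 in coronary artery, against 7.85, 4.60 and 4.14 in descending aorta, a difference of 5.98 ± 1.09 (limma adjusted p = 0.00823). Descending aorta replicate 1 exceeded its 2 companions by over 3 log2 units in Actc1, and without descending aorta replicate 2 the call was lost (limma adjusted p = 0.0578). Actins are close in sequence, so part of a probe set's signal can come from another actin. High levels of these genes were not confined to coronary artery. In superior mesenteric artery Tnnt2 had 10.34, 8.02 and 8.08, and Actc1 had 9.39, 4.35 and 5.87.

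Genes of the Z disc, which anchors the thin filaments, rose by similar amounts. Csrp3, the muscle LIM protein, had 10.82, 10.69 and 10.65 in coronary artery, against 6.52, 3.29 and 3.21 in descending aorta, and the difference was 6.38 ± 0.69 (limma adjusted p = 0.000149). Myoz2, which tethers calcineurin at the Z disc, rose by 5.83 ± 0.74 (limma adjusted p = 0.000641), and Smpx, a small striated muscle protein, by 6.38 ± 0.77 (limma adjusted p = 0.000421). Mb, the oxygen store myoglobin, rose by 5.57 ± 0.44 (limma adjusted p = 8.99e-06). In Csrp3, Smpx, Myoz2 and Mb too, descending aorta replicate 1 was more than 1 log2 unit above both its companions.

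Genes typical of ventricular and of atrial muscle were both higher in part. Of 10 genes typical of ventricular muscle, 6 rose and 0 fell (median 1.33), and of 14 typical of atrial muscle, 8 rose and 0 fell (median 2.48). Of all genes, 1.53% rose and 1.61% fell. Myl7, the atrial regulatory light chain, had levels of 12.02, 12.40 and 11.57 in coronary artery, against 9.24, 4.42 and 4.86 in descending aorta. The groups did not overlap, but descending aorta replicate 1 lay more than 4 log2 units above its companions, and the difference was 5.82 ± 1.18 (limma adjusted p = 0.0164). The call of Myl7 was lost without any 1 of the coronary arrays or of descending aorta replicates 2 and 3 (limma adjusted p between 0.0547 and 0.102). Myl4, the atrial essential light chain, had 10.68, 10.89 and 10.49 in coronary artery, against 8.29, 5.19 and 4.88 in descending aorta, a difference of 4.56 ± 0.74 (limma adjusted p = 0.00394). Stard10 (lipid transfer) and Tbx5 (a T-box transcription factor of the atria and left ventricle) rose by 2.56 ± 0.34 (limma adjusted p = 0.000955) and 2.53 ± 0.31 (limma adjusted p = 0.000492). The atrial genes Bmp10 (-0.53 ± 0.20), Nr2f2 (-0.37 ± 0.40) and Kcna5 (0.25 ± 0.22) did not pass. Nor did Hey2, the member of the ventricular list with the lowest difference (-1.88). Without ascending aorta replicate 1, Hey2 was called lower (limma adjusted p = 0.00278).

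The 3 coronary arrays differed among themselves in chamber genes. Sln, which encodes the atrial calcium pump inhibitor sarcolipin, had levels of 6.03, 8.47 and 6.16 in coronary artery, against 5.04, 3.04 and 3.26 in descending aorta. Mybphl, a myosin-binding protein of the atria, had 8.04, 8.98 and 7.06 in coronary artery, against 4.92, 3.43 and 3.69 in descending aorta. Coronary replicate 2 was the highest of the 3 in both, as it was in Stard10, Myl7, Myl4, Nppa and Hamp. The same held for Smpx, a gene of striated muscle that is not in the chamber lists. Nppb, by contrast, was lowest there (7.70, 6.28 and 7.89 in coronary artery, against 2.38, 2.31 and 2.39 in descending aorta), as was Scgb1c1, a secretoglobin (6.54, 4.97 and 7.31 in coronary artery, against 2.32, 2.51 and 2.57 in descending aorta). Mybphl and Scgb1c1 were chosen after their values were seen. The call of Sln (3.10 ± 0.62 (limma adjusted p = 0.0144)) was lost without descending aorta replicate 2 or 3 (limma adjusted p between 0.074 and 0.0933).

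**Figure D2:**
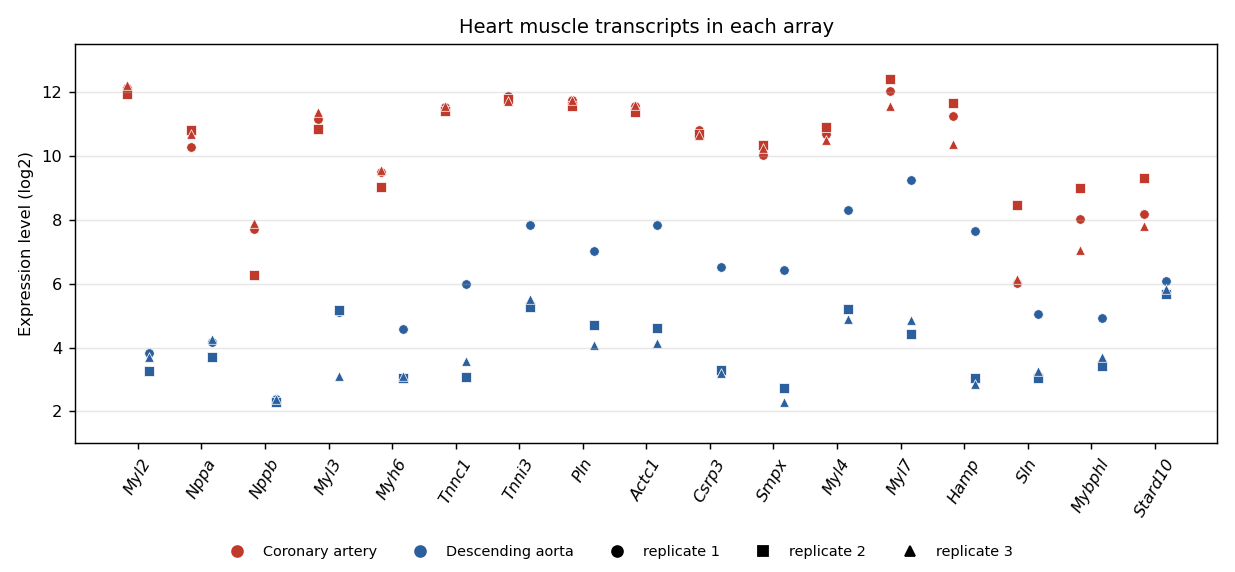
Expression levels (log2, vertical axis) of 17 heart muscle transcripts in each of the 6 arrays, with coronary artery in red left of descending aorta in blue and marker shapes for replicates. Descending aorta replicate 1 (circle) lies more than 1 log2 unit above both companions in the 12 genes from Myh6 to Mybphl. It lies less than that above them, or below 1 of them, in Myl2, Nppa, Nppb, Myl3 and Stard10. Coronary replicate 2 (square) is the highest coronary array in Nppa, Smpx, Myl4, Myl7, Hamp, Sln, Mybphl and Stard10.

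The natriuretic peptides, hormones that heart muscle releases under stretch to lower blood pressure, were both higher. Nppa, the atrial peptide, had levels of 10.27, 10.80 and 10.68 in coronary artery, against 4.17, 3.7 and 4.27 in descending aorta. The difference was 6.54 ± 0.27 (limma adjusted p = 8.72e-08). Nppb, the B-type peptide, had levels in descending aorta within 0.1 log2 unit of each other and near background, and a difference of 4.93 ± 0.37 (limma adjusted p = 5.79e-06). For neither gene did descending aorta replicate 1 stand apart. Corin, the protease that activates the atrial peptide, rose by 2.36 ± 0.34 (limma adjusted p = 0.00152), and Npr3, the clearance receptor, by 2.22 ± 0.43 (limma adjusted p = 0.0127). Npr3 lost its call without coronary replicate 1 or 2 or descending aorta replicate 2 or 3 (limma adjusted p between 0.0613 and 0.0769). The signalling receptors Npr1 (-0.21 ± 0.44) and Npr2 (-0.63 ± 0.47) did not pass.

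Calcium handling genes of the sarcoplasmic reticulum, the store that triggers each beat, also rose. Of 19 measured, 8 were higher, against 1.53% of all genes, and 0 lower, with a median of 1.07. Pln, which restrains the calcium pump, had 11.75, 11.56 and 11.76 in coronary artery, against 7.03, 4.71 and 4.08 in descending aorta and the largest difference, 6.42 ± 0.82 (limma adjusted p = 0.000641). Pln is also a gene of visceral and arterial smooth muscle, and it averaged 7.75 ± 1.87 (SD, n = 3) in superior mesenteric artery. The calcium buffer Casq2 had 7.62, 7.11 and 7.67 in coronary artery, against 2.76, 2.69 and 3.19 in descending aorta, a difference of 4.59 ± 0.57 (limma adjusted p = 0.000539). Groups stood far apart in Ryr2, the release channel, which rose by 3.29 ± 0.29 (limma adjusted p = 2.62e-05), and in Atp2a2, the pump itself, which rose by 2.71 ± 0.38 (limma adjusted p = 0.00137). Hrc and Trdn, partners of the release channel in the store, rose by 4.41 ± 0.35 and 4.22 ± 0.26 (limma adjusted p = 1.06e-05 and 1.72e-06). The plasma membrane calcium channel subunit Cacna1c (0.85 ± 0.41) and the sodium-calcium exchanger Slc8a1 (1.58 ± 0.42) did not pass.

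Of 22 channel and connexin genes of cardiac excitation, 5 rose, against 1.53% of all genes, and 0 fell (median 0.51). Kcnj3 and Kcnj5, the subunits of the potassium channel that acetylcholine opens in the heart, had 5.76, 6.27 and 5.06 in coronary artery, against 3.38, 3.31 and 3.33 in descending aorta for Kcnj3 and 4.36, 4.93 and 4.39 in coronary artery, against 2.28, 2.52 and 2.39 in descending aorta for Kcnj5. Neither pair of groups overlapped, with differences of 2.36 ± 0.26 (limma adjusted p = 0.00016) and 2.16 ± 0.20 (limma adjusted p = 4.53e-05). Kcne1 (slow delayed rectifier), Kcnd2 and Kcnip2 (transient outward current) rose by 1.49 ± 0.21, 1.40 ± 0.26 and 1.09 ± 0.24 (limma adjusted p = 0.00152, 0.0094 and 0.0291). The pacemaker channel Hcn4 (-0.04 ± 0.35) did not pass. Gja5, a connexin of arterial endothelium and of the conduction system, had 3.52, 4.69 and 5.13 in coronary artery, against 7.90, 6.91 and 7.64 in descending aorta without overlap, and its difference of -3.04 ± 0.82 missed the threshold (limma adjusted p = 0.0758). Without ascending aorta replicate 1, Gja5 was called lower (limma adjusted p = 0.000245), and Kcnip2 lost its call without coronary replicate 2 or 3 or any array of descending aorta (limma adjusted p between 0.078 and 0.132).

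Junctions that couple heart muscle cells end to end rose in part. Of 20 genes of the intercalated disc and costamere, 10 were higher, against 1.53% of all genes, and 0 lower (median 1.25). Popdc2, a membrane protein of striated muscle, had 8.75, 8.41 and 8.78 in coronary artery, against 5.51, 4.92 and 5.0 in descending aorta, a difference of 3.50 ± 0.58 (limma adjusted p = 0.00463). The desmosomal genes Dsp and Pkp2 rose by 2.55 ± 0.37 and 2.12 ± 0.31 (limma adjusted p = 0.00156 and 0.00205), and the adhesion gene Cdh2, which encodes N-cadherin, by 2.11 ± 0.30 (limma adjusted p = 0.00136). Jup, plakoglobin, rose by 1.15 ± 0.24 (limma adjusted p = 0.0212) and lost that call without coronary replicate 1 or 3 or any array of descending aorta (limma adjusted p between 0.0592 and 0.108). Members shared with smooth muscle, such as Vcl (-0.42 ± 0.43) and Sgcd (-0.58 ± 0.63), did not pass.

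Of 22 transcription factors and cofactors of heart development, 7 rose, against 1.53% of all genes, and 0 fell (median 0.51). Tbx20, a T-box factor needed in adult heart muscle, had 6.57, 5.74 and 6.46 in coronary artery, against 3.06, 3.0 and 3.03 in descending aorta. Its descending aorta levels were all near background, and the difference was 3.23 ± 0.27 (limma adjusted p = 1.67e-05). Gata4, a zinc finger factor that binds the GATA motif shown above, had 5.82, 6.05 and 6.27 in coronary artery, against 4.34, 4.14 and 4.15 in descending aorta, a difference of 1.84 ± 0.24 (limma adjusted p = 0.000705). Ankrd1 and Smyd1, both of striated muscle, rose by 3.86 ± 0.62 and 2.41 ± 0.21 (limma adjusted p = 0.0037 and 2.56e-05), and Hopx by 2.87 ± 0.26 (limma adjusted p = 3.3e-05). Gata5 rose by 1.01 ± 0.25 (limma adjusted p = 0.0458) and lost its call without any 1 of the 6 arrays (limma adjusted p up to 0.192). Nkx2-5 (0.35 ± 0.21), Gata6 (0.55 ± 0.40) and Mef2c (0.14 ± 0.32) did not pass.

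Epicardial genes leaned one way. All 17 measured epicardial and mesothelial genes had positive differences, against 9801 of all 19938 genes, with a median of 1.53, and 2 passed the threshold. Tcf21, a factor of epicardium-derived fibroblasts and smooth muscle precursors, had 7.99, 7.52 and 7.64 in coronary artery, against 3.96, 3.92 and 4.53 in descending aorta, a difference of 3.58 ± 0.44 (limma adjusted p = 0.000446). Coronary arrays stood more than 2 log2 units above descending aorta arrays. Krt8, a keratin of surface epithelia, rose by 1.42 ± 0.33 (limma adjusted p = 0.0379) and lost its call without coronary replicate 2 or 3 or descending aorta replicate 1 or 2 (limma adjusted p between 0.113 and 0.185). Wt1, a defining epicardial factor, had 7.08, 6.99 and 6.52 in coronary artery, against 5.20, 4.69 and 6.11 in descending aorta and a difference of 1.53 ± 0.39 (limma adjusted p = 0.0583). Leaving out replicate 1 of ascending aorta, or replicate 3 of descending aorta, made Wt1 pass as higher and brought the number of called members to 5 in each case. With the 6 arrays alone 10 members were called higher, and without coronary replicate 2 or 3 or descending aorta replicate 1 or 2 the number was 1. The mean of the 17 was 6.94, 7.35 and 6.71 in coronary artery, against 5.30, 5.04 and 6.39 in descending aorta, and replicate 3 was the highest of the descending aorta arrays. Tbx18, another epicardial factor, did not pass (0.39 ± 0.39).

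Endothelial genes gave few calls. Of 22 general endothelial genes, 3 rose, against 1.53% of all genes, and 0 fell (median 0.45). A fit of the 6 arrays alone gave 7 higher and 1 lower. Without coronary or descending aorta replicate 1 or 2, the number higher was 1. Kdr, the main receptor for vascular endothelial growth factor, had 5.75, 5.46 and 5.35 in coronary artery, against 3.50, 3.34 and 3.50 in descending aorta, a difference of 2.07 ± 0.37 (limma adjusted p = 0.00764). Emcn, a sialomucin of capillaries and veins, had 8.70, 8.44 and 8.12 in coronary artery, against 5.90, 5.83 and 6.16 in descending aorta, a difference of 2.46 ± 0.50 (limma adjusted p = 0.0162), and Flt1, another growth factor receptor, rose by 1.51 ± 0.35 (limma adjusted p = 0.0348). Emcn lost its call without coronary replicate 1 or 2 or descending aorta replicate 1 or 2 (limma adjusted p between 0.0661 and 0.0814), and Flt1 without any 1 of the 6 arrays (limma adjusted p up to 0.133). The pan-endothelial genes Pecam1 (-0.32 ± 0.48) and Cdh5 (0.87 ± 0.48) did not pass. Of 20 arterial and large-vessel genes, 0 passed in either direction (limma, median -0.26), against 4 lower and 1 higher in a fit of the 6 arrays alone. In the heart and capillary list of 16, Kdr and Sgk1 (1.21 ± 0.26) rose, and Rgcc (-2.24 ± 0.37), Aqp7 (-1.83 ± 0.33) and Fabp4 (-1.49 ± 0.23), which adipocytes also express, fell. With the 6 arrays alone 4 members of that list were higher. Sgk1 lost its call without coronary or descending aorta replicates 1 or 2 (limma adjusted p between 0.101 and 0.116), and Aqp7 without coronary or descending aorta replicate 2 (between 0.0504 and 0.0578).

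Of 19 iron genes, 3 rose and 1 fell, against 1.53% and 1.61% of all genes. Hamp encodes hepcidin, a peptide best known as the liver hormone that closes the iron exporter ferroportin, and it is also made in heart. It had 11.24, 11.66 and 10.38 in coronary artery, against 7.66, 3.06 and 2.87 in descending aorta. Descending aorta replicate 1 lay more than 4 log2 units above its companions, yet below every coronary array, and the difference was 6.57 ± 1.11 (limma adjusted p = 0.00511). Hamp thus shared its high values in descending aorta replicate 1 and coronary replicate 2 with Myl7, Myl4, Smpx, Sln and Mybphl of heart muscle. Hamp2, a near-identical neighbour whose probes may share signal with Hamp, had 8.41, 9.17 and 7.26 in coronary artery, against 6.59, 6.47 and 6.04 in descending aorta and a difference of 1.91 ± 0.41 (limma adjusted p = 0.0223). Hamp2 lost its call without coronary replicate 1 or 2 or any array of descending aorta (limma adjusted p between 0.0573 and 0.0968). Hjv, or hemojuvelin, a co-receptor for bone morphogenetic proteins that is needed for hepcidin expression in liver, had 7.93, 8.07 and 8.01 in coronary artery, against 3.39, 2.81 and 3.98 in descending aorta, with no array standing apart and a difference of 4.61 ± 0.31 (limma adjusted p = 3.04e-06). Aco1, the cytosolic aconitase that doubles as an iron sensor, fell, with a difference of -1.82 ± 0.30 (limma adjusted p = 0.00439). The exporter Slc40a1 (0.26 ± 0.30), the transferrin receptor Tfrc (-0.14 ± 0.25) and Hfe (-0.21 ± 0.26) were among the 15 that did not pass.

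Few genes of mitochondrial respiration passed. Of 41 subunits of oxidative phosphorylation, 2 rose and 1 fell, against 1.53% and 1.61% of all genes, with a median of -0.09. The list averaged 9.78 ± 0.08 (SD, n = 3) in coronary artery and 9.72 ± 0.09 (SD, n = 3) in descending aorta. In superior mesenteric artery it averaged 7.95 ± 0.15 (SD, n = 3). Heart muscle and brown fat are both rich in mitochondria. Cox7a1, a subunit of both tissues, had 11.23, 11.13 and 11.35 in coronary artery, against 10.99, 11.11 and 11.25 in descending aorta, and Cox8b, another, differed by 0.08 ± 0.41 (limma adjusted p = 0.981). Cox6a2, the subunit of striated muscle, had 12.12, 12.07 and 12.20 in coronary artery, against 8.34, 5.11 and 4.89 in descending aorta, a difference of 6.02 ± 0.79 (limma adjusted p = 0.000802) in which descending aorta replicate 1 stood above its companions. Atp5j also rose (0.90 ± 0.16, limma adjusted p = 0.00709). Outside the list, Atp5g1 and Atp5g3, 2 genes of the c subunit of ATP synthase chosen after their values were seen, rose by 3.62 ± 0.23 and 1.19 ± 0.19 (limma adjusted p = 1.99e-06 and 0.00317). Cox6a1, the form of this subunit in other tissues, fell (-0.82 ± 0.20, limma adjusted p = 0.045), and that call was lost without any 1 of the 6 arrays (limma adjusted p up to 0.172).

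Enzymes with a striated muscle form and another form were set side by side. In 4 of the 8 pairs drawn, the muscle form was called higher and the other form lower, and the pairs were chosen after their values were seen, so this is a description. One of the 4 is Cox6a2 and Cox6a1, of which Cox6a1 lost its call as given above. In a pair not drawn, both Gys1, the muscle glycogen synthase, and Gys2, the liver form, fell, with -1.15 ± 0.28 and -2.78 ± 0.38 (limma adjusted p = 0.0432 and 0.00121), and Gys1 lost its call without any 1 of 9 of the 12 arrays (limma adjusted p between 0.0515 and 0.2). Ckm and Ckmt2, the muscle and the sarcomeric mitochondrial creatine kinases, rose by 4.22 ± 0.35 and 5.19 ± 0.24 (limma adjusted p = 1.4e-05 and 1.38e-07), while Ckb, the brain form, differed by -0.17 ± 0.49 (limma adjusted p = 0.956). Ckmt1, the ubiquitous mitochondrial form, differed by 1.55 ± 0.41 without overlap and did not pass (limma adjusted p = 0.0713). Pgam2, the muscle phosphoglycerate mutase, had 9.70, 9.98 and 9.92 in coronary artery, against 5.48, 4.35 and 4.10 in descending aorta, and Pgam1, the general form, had 6.6, 6.84 and 5.97 in coronary artery, against 7.90, 8.59 and 8.07 in descending aorta. The differences were 5.22 ± 0.41 (limma adjusted p = 8.75e-06) for Pgam2 and -1.72 ± 0.30 (limma adjusted p = 0.00688) for Pgam1. Pygm, the muscle glycogen phosphorylase, rose by 2.77 ± 0.25 (limma adjusted p = 3.05e-05), and Pygl, the liver form, fell, with -3.45 ± 0.58 (limma adjusted p = 0.00491). Pfkm, muscle phosphofructokinase, rose by 1.65 ± 0.32 (limma adjusted p = 0.0123), and Pfkl, the liver form, fell, with -1.35 ± 0.25 (limma adjusted p = 0.00862). Pfkm lost its call without coronary replicate 1 or 3 or descending aorta replicate 1 or 3 (limma adjusted p between 0.0512 and 0.0604), and Pfkl without descending aorta replicate 2 (limma adjusted p = 0.0584). The nucleotide carrier Slc25a4 of heart and muscle rose by 1.83 ± 0.27 (limma adjusted p = 0.00212), and its general partner Slc25a5 differed by -0.83 ± 0.21 without overlap and did not pass (limma adjusted p = 0.0587). Eno3, muscle enolase, rose by 4.30 ± 0.33 (limma adjusted p = 8.03e-06).

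**Figure D3:**
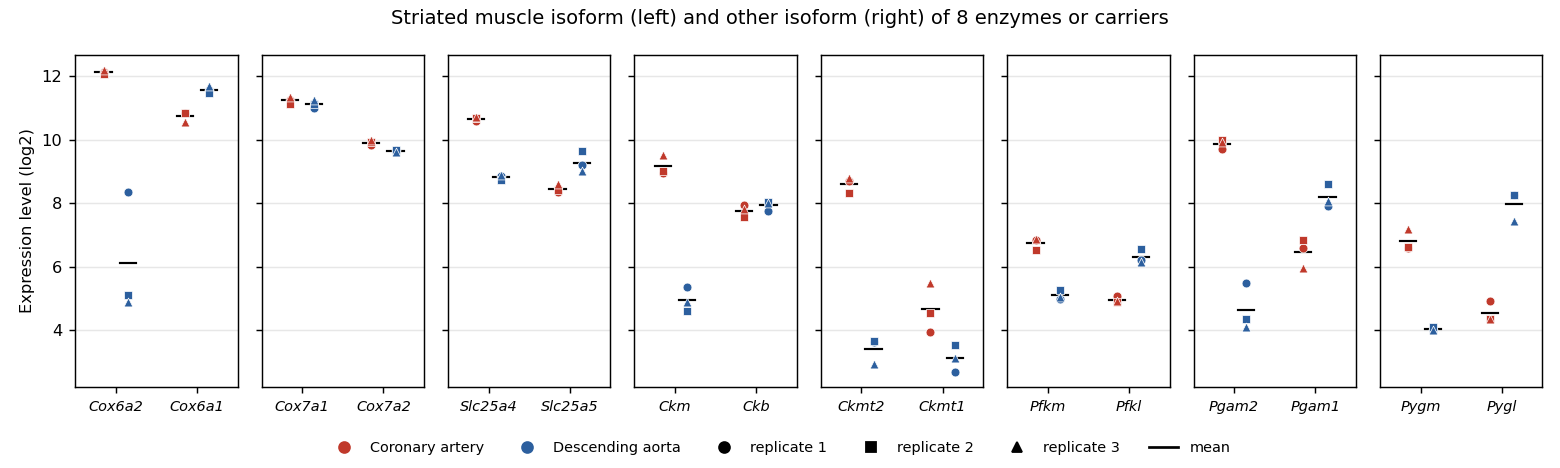
Expression levels (log2, vertical axis) of 8 pairs of enzymes or carriers, with the striated muscle form left and another form right in each panel. Within each gene coronary artery (red) stands left of descending aorta (blue), points are arrays and black bars means. Levels may be read between vessels within a gene, not between genes. Groups part in opposite directions in Pfkm and Pfkl, Pgam2 and Pgam1, Pygm and Pygl, while Cox7a1 lies at the same level in both vessels.

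Fatty acid oxidation genes were mostly lower. Of 25 measured, 21 had negative differences, with a median of -0.82. The threshold was passed by 3 as lower, against 1.61% of all genes, and by 1 as higher, against 1.53%. In 17, all coronary arrays lay below all descending aorta arrays, against 12.5% of all genes. Ppara, the nuclear receptor that controls the pathway, had 4.56, 4.45 and 4.84 in coronary artery, against 5.70, 5.77 and 6.47 in descending aorta, a difference of -1.36 ± 0.24 (limma adjusted p = 0.00587). Slc25a20, the carnitine carrier, and Acadvl, the first dehydrogenase of the spiral, fell, with -1.15 ± 0.25 and -1.15 ± 0.27 (limma adjusted p = 0.0269 and 0.0408). Fabp3, the fatty acid-binding protein of heart and of brown fat, rose by 1.57 ± 0.35 (limma adjusted p = 0.0288). The count of lower members was 15 without ascending aorta replicate 1, 13 in a fit of the 6 arrays alone, and 1 without any 1 of the coronary arrays or descending aorta replicates 2 and 3. Fabp3 and Acadvl lost their calls without any 1 of the 6 arrays (limma adjusted p up to 0.127 and 0.169), and Slc25a20 without 5 of the 6 (limma adjusted p between 0.0562 and 0.122).

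Fat transcripts were the main group below. Of 23 genes shared by white and brown adipocytes, 18 fell in coronary artery, against 1.61% of all genes, and 0 rose. The median was -2.33, and in 22 the coronary arrays lay below all descending aorta arrays, against 12.5% of all genes. The mean of the 23 was 6.53, 6.25 and 6.61 in coronary artery, against 8.93, 9.08 and 8.55 in descending aorta, with no array standing apart in either vessel. Gpd1, which makes the glycerol backbone of triglyceride, had 5.57, 5.23 and 4.41 in coronary artery, against 9.56, 9.94 and 9.56 in descending aorta, a difference of -4.62 ± 0.47 (limma adjusted p = 8.88e-05). Pck1, the gateway of glyceroneogenesis, had 5.26, 4.53 and 4.28 in coronary artery, against 8.50, 9.49 and 9.09 in descending aorta, a difference of -4.34 ± 0.38 (limma adjusted p = 2.19e-05). Plin1, which coats lipid droplets, had 4.83, 4.83 and 5.25 in coronary artery, against 8.43, 8.83 and 8.07 in descending aorta, a difference of -3.47 ± 0.41 (limma adjusted p = 0.000324). The adipocyte regulator Pparg and the hormone Adipoq fell, with -2.64 ± 0.41 and -2.56 ± 0.41 (limma adjusted p = 0.003 and 0.00377).

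Lipid synthesis enzymes fell in parallel, but with wider errors, which draw on the spread in all 12 arrays and not only in these 2 vessels. Fasn, Acaca and Acly, which build fatty acids from citrate, had differences of -3.12 ± 0.71, -3.12 ± 0.62 and -2.97 ± 0.70 (limma adjusted p = 0.0329, 0.0148 and 0.0386). Fasn lost its call without any 1 of the 6 arrays (limma adjusted p between 0.0667 and 0.138), Acly without 5 of the 6 or superior mesenteric artery replicate 3 (between 0.0593 and 0.167), and Acaca without coronary replicate 1 or 2 or descending aorta replicate 1 or 2 (between 0.0681 and 0.0808). Over the alternatives the lowest limma adjusted p was 2.47e-05 for Fasn, 0.00018 for Acly and 6.46e-05 for Acaca. Lpl, the lipase of fat, heart and skeletal muscle, was the 1 member with a positive difference (0.19 ± 0.26, limma adjusted p = 0.872). Over the alternatives the number of members called lower ranged from 12 to 22.

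Brown fat genes were lower too. Of 17 measured, 7 fell, against 1.61% of all genes, and 1, Fabp3, rose (median -1.11). Ucp1, the uncoupling protein that turns fuel into heat, had 5.87, 5.38 and 3.05 in coronary artery, against 11.29, 11.59 and 11.59 in descending aorta. Coronary replicate 3 was the lowest of its group by over 2 log2 units, the descending aorta arrays lay within 0.30 of each other, and the difference of -6.72 ± 0.83 (limma adjusted p = 0.000492) was the largest of all lower genes. Cidea, a lipid droplet protein of brown fat, had 4.45, 4.32 and 4.26 in coronary artery, against 8.27, 8.72 and 8.65 in descending aorta, a difference of -4.21 ± 0.38 (limma adjusted p = 2.7e-05). Dio2, which activates thyroid hormone, and Slc27a2, a fatty acid transporter, fell, with -2.24 ± 0.40 and -2.99 ± 0.41 (limma adjusted p = 0.00709 and 0.00113). Prdm16 (-0.91 ± 0.37) and Ebf2 (-1.04 ± 0.34), transcription factors of brown fat, did not pass. Other genes among the 15 most lowered were Nrg4, a growth factor secreted by brown fat (-3.50 ± 0.48), Gpd2 (-3.35 ± 0.32), Prkar2b, a regulatory subunit of protein kinase A (-3.72 ± 0.39), Trarg1 (-3.54 ± 0.62), Adtrp (-3.72 ± 0.36), and Elovl6, which lengthens fatty acids (-3.43 ± 0.64). Elovl6 lost its call without coronary or descending aorta replicate 1 (limma adjusted p between 0.0526 and 0.054), and Tmem45b, also among the 15 (-4.24 ± 0.78), without coronary replicate 2 or descending aorta replicate 1 or 2 (between 0.0505 and 0.0593).

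**Figure D4:**
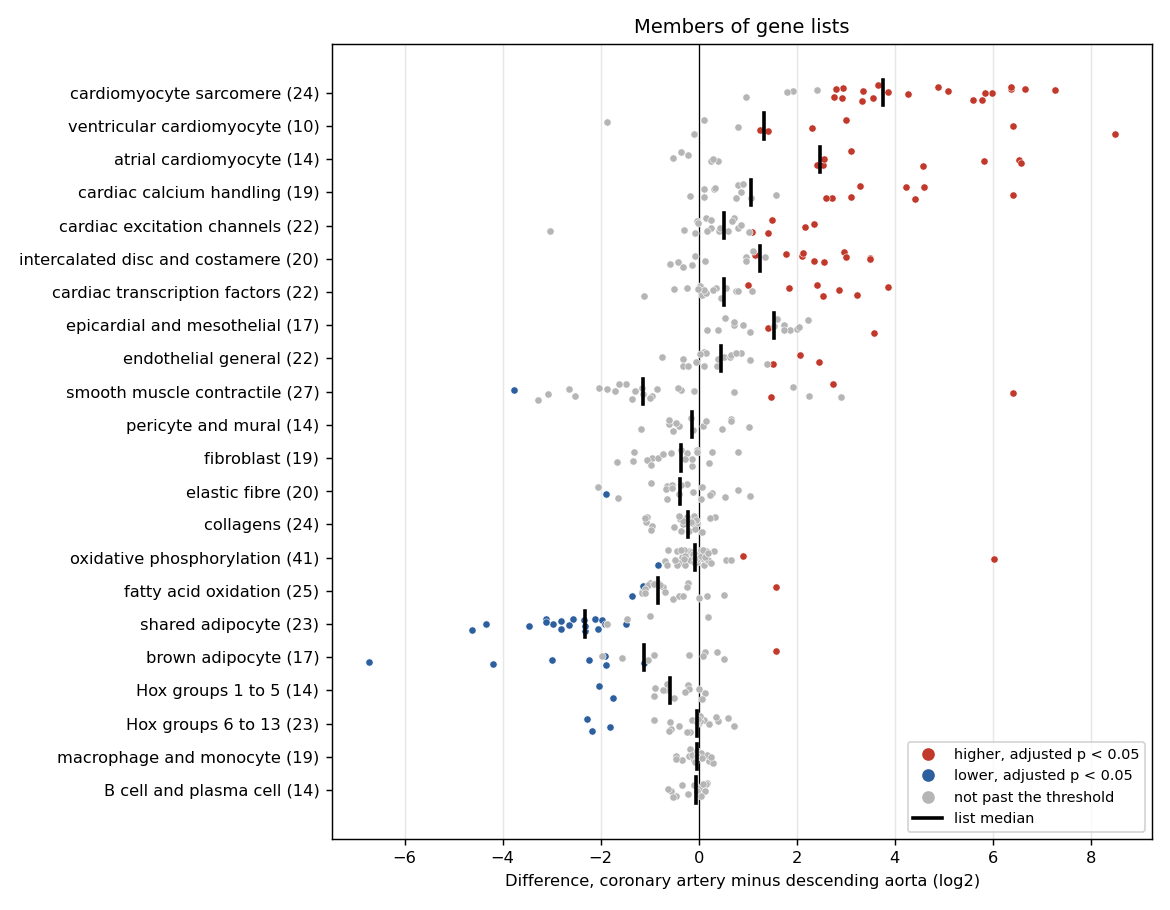
Log2 differences, coronary artery minus descending aorta (horizontal axis), of every measured member of 22 gene lists (rows, with the number measured). Red points passed the threshold as higher, blue as lower, grey did not pass, and black bars are list medians. The sarcomere median lies at 3.76 and the shared adipocyte median at -2.33.

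Contractile genes of smooth muscle were mostly at lower levels in coronary artery. Of 27 measured, 20 had negative differences (median -1.15), and in 19 all coronary arrays lay below all descending aorta arrays, against 12.5% of all genes. The threshold was passed by 1 as lower, against 1.61% of all genes, and by 3 as higher, against 1.53%. Cnn1, calponin, had 4.67, 5.12 and 3.61 in coronary artery, against 8.04, 8.34 and 8.30 in descending aorta, a difference of -3.76 ± 0.84 (limma adjusted p = 0.0291). Myh11, the smooth muscle myosin heavy chain, had 5.29, 5.02 and 4.45 in coronary artery, against 7.71, 8.43 and 7.83 in descending aorta, a difference of -3.07 ± 0.84 (limma adjusted p = 0.0825). Acta2, smooth muscle actin, had 7.97, 7.96 and 7.22 in coronary artery, against 10.09, 10.41 and 10.24 in descending aorta, a difference of -2.53 ± 0.63 (limma adjusted p = 0.0516). In all 3 the groups were apart by more than 2 log2 units. The higher members were Pln, Des and Ppp1r12b, all of which heart muscle can also express. Des, desmin, rose by 2.74 ± 0.66 (limma adjusted p = 0.0435).

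The counts of smooth muscle genes differed with the arrays in the fit. With the 6 arrays alone 17 members were lower and 6 higher, and without ascending aorta replicate 1 the numbers were 7 lower and 6 higher. Without superior mesenteric artery replicate 1 or 2, 6 or 4 members were lower, and without any 1 coronary or descending aorta array 0 were lower. Cnn1 then had a limma adjusted p between 0.0623 and 0.141. Des lost its call without any 1 of the 6 arrays (limma adjusted p up to 0.171). Without coronary replicate 3 or descending aorta replicate 1 or 3, 1 member was higher.

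Receptors of smooth muscle gave few calls. Of 25 signalling genes, 2 rose and 1 fell (median 0.21), against 1.53% and 1.61% of all genes. Agtr1a, the angiotensin II receptor, had 6.31, 6.01 and 6.62 in coronary artery, against 4.48, 4.42 and 4.85 in descending aorta, a difference of 1.73 ± 0.22 (limma adjusted p = 0.000547). Calcrl, the receptor that binds calcitonin gene-related peptide with a partner, rose by 1.44 ± 0.29 (limma adjusted p = 0.0143). Ptger3, a prostaglandin E2 receptor, fell, with -2.04 ± 0.48 (limma adjusted p = 0.038). Calcrl lost its call without coronary replicate 1 or 2 or descending aorta replicate 2 (limma adjusted p between 0.0644 and 0.0867), and Ptger3 without 5 of the 6 arrays of the pair (up to 0.173). Among 14 pericyte genes 0 passed (limma, median -0.14), against 1 higher and 1 lower with the 6 arrays alone.

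The number of vessel wall matrix genes called differed with the arrays in the fit. With all arrays, 1.53% of all genes were called higher and 1.61% lower. Of 20 elastic fibre genes, 1 fell and 0 rose (median -0.38), against 4 lower and 2 higher both without ascending aorta replicate 1 and with the 6 arrays alone. It was Fbln7, a fibulin, with 4.54, 4.02 and 4.09 in coronary artery, against 6.09, 6.04 and 6.20 in descending aorta and a difference of -1.89 ± 0.23 (limma adjusted p = 0.000421). Eln, elastin itself, differed by -0.65 ± 0.34 (limma adjusted p = 0.478), and Lox, which crosslinks elastin and collagen, by -2.05 ± 0.53 (limma adjusted p = 0.0624). Lox was called lower without ascending aorta replicate 1 or 3 (limma adjusted p between 0.000987 and 0.0352). Of 24 collagens and 19 fibroblast genes, 0 passed by limma in either direction with all arrays, and 5 collagens and 8 fibroblast genes were lower, and 1 fibroblast gene higher, with the 6 arrays alone. Without ascending aorta replicate 1 the counts were 4 collagens lower, 6 fibroblast genes lower and 1 higher. Spon2, a secreted matrix protein, was the 1 of 28 proteoglycan and matricellular genes that rose (2.01 ± 0.30 (limma adjusted p = 0.00236)).

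Secreted Wnt antagonists held 1 of the largest differences. Of all genes, 3.14% were called, so 1 call among the 32, 35 or 21 genes of a pathway below says little about that pathway. Sfrp4 had 4.93, 3.78 and 4.05 in coronary artery, against 9.51, 9.37 and 9.45 in descending aorta, a difference of -5.19 ± 0.77 (limma adjusted p = 0.00205). It was the 1 called gene among 32 Wnt ligands, receptors and inhibitors, whose median was -0.04. Sfrp2, its relative, differed by -2.82 ± 0.80 (limma adjusted p = 0.0952) and was called lower without ascending aorta replicate 1 (limma adjusted p = 2.11e-06). In the TGF-beta and BMP pathway 1 of 35 genes passed, Gdf10, which fell, with -2.37 ± 0.47 (limma adjusted p = 0.0142), and lost the call without 5 of the 6 arrays of the pair (limma adjusted p between 0.0502 and 0.0761). In the Notch pathway 1 of 21 passed, Mfng, a glycosyltransferase that modifies Notch, with -1.01 ± 0.24 (limma adjusted p = 0.045), a call lost without 5 of the 6 arrays (limma adjusted p up to 0.181).

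Hox genes, which record position along the trunk, were lower in coronary artery in 5 cases and higher in 0. Of 23 genes of groups 6 to 13, 3 fell (median -0.03), and of 14 of groups 1 to 5, 2 fell (median -0.58). Of all genes, 1.61% fell. Hoxc8 had 3.13, 2.63 and 2.85 in coronary artery, against 5.51, 4.98 and 4.98 in descending aorta, a difference of -2.29 ± 0.31 (limma adjusted p = 0.00101). Hoxb6 had 3.92, 3.81 and 3.29 in coronary artery, against 6.22, 5.70 and 5.67 in descending aorta, a difference of -2.19 ± 0.33 (limma adjusted p = 0.00238). Hoxc6 had 2.87, 3.04 and 2.81 in coronary artery, against 4.94, 4.83 and 4.37 in descending aorta, a difference of -1.80 ± 0.24 (limma adjusted p = 0.00081). Coronary levels of Hoxc6 and Hoxc8 lay near the first quartile of the arrays, so they may be background. These 3 genes were called under all 24 alternatives.

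Hoxb5 and Hoxa5 were less firm. Hoxb5 had 2.83, 3.65 and 3.69 in coronary artery, against 5.84, 5.17 and 5.28 in descending aorta, a difference of -2.04 ± 0.44 (limma adjusted p = 0.024), and Hoxa5 had 4.14, 3.62 and 2.56 in coronary artery, against 5.42, 4.88 and 5.27 in descending aorta, a difference of -1.75 ± 0.39 (limma adjusted p = 0.0298). Hoxb5 lost its call without any 1 of the 6 arrays (limma adjusted p between 0.0551 and 0.116), and Hoxa5 without 5 of them (between 0.0693 and 0.128). In the other vessels, Hoxc8 averaged 2.83 ± 0.09 (SD, n = 3) in ascending aorta and 3.15 ± 0.74 (SD, n = 3) in superior mesenteric artery, both near the coronary level. Hoxb6 averaged 4.18 ± 0.29 (SD, n = 3) in ascending aorta and 5.28 ± 0.74 (SD, n = 3) in superior mesenteric artery, the second near descending aorta. Hoxc8 and Hoxb6 thus had different orders across the vessels, a difference that was not tested and is not extended to the rest of their clusters.

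**Figure D5:**
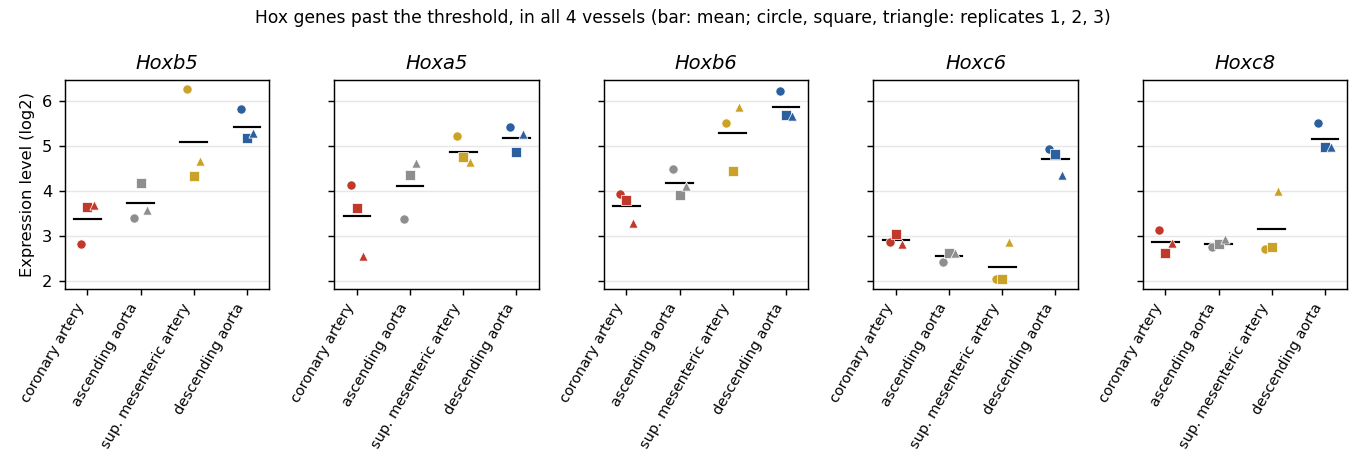
Expression levels (log2, vertical axis) of the 5 Hox genes past the threshold, in coronary artery, ascending aorta, superior mesenteric artery and descending aorta from left to right in each panel. Points are arrays and black bars means. Coronary arrays lie below descending aorta arrays in all 5, and superior mesenteric artery is low in Hoxc6 and Hoxc8 but not in Hoxb5, Hoxa5 and Hoxb6.

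Regulators of other lineages and blood cells gave few calls. The counts below stand against 1.53% of all genes called higher and 1.61% called lower. Meox1, a somite homeobox gene, rose by 1.62 ± 0.36 (limma adjusted p = 0.0279). It was the 1 called gene among 24 transcription factors of trunk mesoderm and among 19 of neural crest, and lost its call without 5 of the 6 arrays (limma adjusted p between 0.0756 and 0.13). Markers of B cells (14), T cells (12) and macrophages (19) had 0 calls by limma, with medians of -0.06, 0.24 and -0.03. Of 16 neuron and Schwann cell genes 1 fell, S100b, a calcium-binding protein of glia and of adipocytes, with -2.77 ± 0.61 (limma adjusted p = 0.0278), a call lost without any 1 of the 6 arrays (limma adjusted p up to 0.133). The Schwann cell genes Sox10 (0.38 ± 0.18) and Mbp (0.49 ± 0.20) did not pass. Of 20 skeletal muscle genes, Ckm and Tnnt1 (1.17 ± 0.22 (limma adjusted p = 0.00932)) rose, to which Acta1 (1.36 ± 0.42) and Actn3 (1.02 ± 0.27) were added without coronary replicate 2, and the defining genes of fast fibres Myh4 (0.39 ± 0.17) and Myh1 (-0.07 ± 0.19) did not pass.

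The other vessels were set beside the called genes. Of the 306 genes higher in coronary artery, the mean of ascending aorta lay nearer to descending aorta than to coronary artery in 300, and that of superior mesenteric artery in 270. Of the 321 genes lower in coronary artery, ascending aorta lay nearer to coronary artery in 131 and nearer to descending aorta in 190. Superior mesenteric artery lay nearer to coronary artery in 278 of the 321. The genes were chosen by the difference between 2 of the vessels, so these numbers are a description.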

How the data were processed

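Total RNA was extracted with Trizol and labelled with biotin, per the labels' protocols. The authors deposited 1 table of 35556 probe sets with log2 expression values for all 12 arrays. The submitters' processing notes name RMA and Partek 6.6 without their roles. RMA corrects background, equalises distributions between arrays and summarises probes, so a difference shared by most genes would be removed, and weak probes are compressed towards background. No genome build for the probes is given in the sources used here.

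Probe sets with 1 gene symbol in the platform annotation (21789, against 1621 with several and 12146 with none) were kept. For the 999 genes with more than 1, the probe set with the highest mean was used, which left 19938 genes. With limma 3.58.1 (R 4.3.3), all 12 arrays entered 1 linear model that gave each vessel its own mean (8 residual degrees of freedom, default moderation). The contrast was coronary artery minus descending aorta, with Benjamini-Hochberg adjustment over all genes and a threshold of 0.05.

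The members and the 42 gene lists were chosen with earlier results of these data known. Lists are described by counts and medians, with no set test. Genes were named by rule: the 15 with the largest called difference in each direction, leaving out unnamed gene models, up to 6 members of each list, list members behind a count of 5 or fewer, and every called Hox gene. Cpa1, Ctrb1, Gys2 and a further 63 were chosen after their values were seen, among them Acta2, Pecam1, Pparg, Cox7a1 and the isoform partners. Promoter letters came from RefSeq on GRCm38.p6. On simulated data for this contrast, with 200 of 19938 genes changed, the fit recovered 43.4% of genes changed by 1 log2 unit and 87.8% of those changed by 2, and 6.1% of calls were false. Alternatives were other normalizations, filters, probe set rules, variance models, thresholds and sets of arrays. Tables and figures were made with Python 3.11.15, pandas 2.3.3 and matplotlib 3.10.9.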

Additional observations from a re-analysis of the deposited data

How the results depend on the processing

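The labels number the replicates of both vessels without saying whether a number stands for the same animal. Deviations from the vessel means correlated across genes at 0.09, -0.06 and -0.04 for replicates 1, 2 and 3. Between arrays of different number they correlated at -0.06 to 0.10. With 3 arrays in each vessel, these values cannot show whether the numbers pair the arrays. With the replicate number as a block, 525 genes were called (279 higher, 246 lower), 497 of them also called without it. With the 6 arrays alone 1261 genes were called (552 higher, 709 lower), and with array weights 1095 (489 higher, 606 lower). A threshold of 0.01 gave 322 (187 higher, 135 lower). Leaving out 1 array in turn gave 324 (without descending aorta replicate 2) to 1056 calls (without ascending aorta replicate 1), with 192 to 455 higher and 132 to 601 lower. The other counts were 402, 385 and 414 without coronary replicates 1, 2 and 3, and 385 without descending aorta replicate 1. Why these counts and the list counts differed between settings was not tested. The share of calls that were higher was 48.8% with all arrays, 55.0% after a renewed quantile normalization and 41.2% without the 3 arrays named in the text, and ranged up to 59.3%. Of 133 named genes that were called, 92 were called under all 24 alternatives, and none of the 133 changed sign. Cpa1, Ctrb1 and Gys2 were not followed over the alternatives and are not in these counts. The number of arrays limits the precision, signal over background was not used here, and genes near the lowest quartile may be background.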

Other observations

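MicroRNA genes, of which 302 were measured on these arrays, had 0 calls by limma and 12 at an unadjusted p under 0.05. Clock genes, 17 in all, had 0 calls by limma and a median difference of 0.03, and 11 epithelial genes of lung and airway had 0 calls and a median of 0.11. Unnamed gene models made up 7 of the genes higher in coronary artery and 7 of those lower.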
